A study of Homo sapiens with 6 samples.

Results

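The 10 genes described here encode the enzymes that write, copy and remove methyl groups on DNA, with the remodeller HELLS and its partner: HELLS, CDCA7, DNMT1, UHRF1, DNMT3A, DNMT3B, TET1, TET2, TET3 and TDG. They were found by symbol, 10 of the 38648 genes listed in each table, and all 10 passed the filter on low counts that left 15381 genes for testing. The set was picked from this comparison with its results known: HELLS was among the genes lower with PRDM16 that had the smallest p values. The values of the 10 genes are therefore a description, and the counts of calls below stand only beside the share of all genes called and are no test of the set.

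The study measured messenger RNA by sequencing in HPC, a human podocyte cell line labelled as wild type (podocytes are the epithelial cells that wrap the capillaries of the kidney filter). All 6 libraries came from cells in high glucose, 3 given a control (NC) lentivirus and 3 a lentivirus for overexpression of PRDM16, a zinc finger transcription regulator, for 24 h. There was no group without high glucose or without virus, and the labels do not state the glucose concentration or the promoter of the virus. The labels do not say whether replicates were grown as separate cultures, so every p value below reflects the spread among these libraries alone, and that spread may be technical.

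DNA methylation is the addition of a methyl group to cytosine, mostly where a guanine follows. DNMT3A and DNMT3B place it on unmethylated DNA, DNMT1 with its guide UHRF1 copies it to the new strand at replication, and the TET enzymes oxidise it so that TDG and base excision repair can restore plain cytosine. HELLS, a remodeller of the SNF2 family recruited by CDCA7, opens nucleosomes so that the methylation machinery can reach the DNA, and loss of either gene causes the ICF syndrome of immunodeficiency with unstable centromeres.

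The libraries held between 20147135 and 41280350 counts. PRDM16 had 0 counts in each of the 3 NC libraries and 11, 18 and 24 counts in the PRDM16 libraries, at least 13.9-fold higher over 3 counts in the NC group (adjusted p = 0.000771, quasi-likelihood test of edgeR). Of 10 podocyte markers, 5 had at most 5 counts in every library, among them NPHS1 of the slit diaphragm and the transcription factor WT1. The labelled cell type was thus not borne out by those defining genes, while the other 5 markers exceeded 5 counts in at least 1 library. Summed levels of the 10 podocyte markers were 324 to 414 CPM (counts scaled to a library of 1000000) in NC and 290 to 319 in PRDM16 libraries, and those of 6 parietal epithelium markers were 2718 to 2986 and 3032 to 3221. Those of 6 leukocyte markers were 137 to 163 and 178 to 183 CPM, nearly all from CD68, with CD3E at 0 and LYZ at no more than 3 counts. Sums of 6 mesangial or fibroblast markers were 296 to 351 CPM in NC and 311 to 342 in PRDM16 libraries, a level near that of the podocyte markers. Endothelial sums (KDR at 0) were 2.91 to 3.26 and 3.12 to 3.61 CPM, and proximal tubule sums (LRP2 at 0) 3.47 to 4.04 and 3.05 to 3.73. The groups did not overlap in the podocyte sum, lower with PRDM16, or in the parietal and leukocyte sums, higher with PRDM16. They overlapped in the mesangial or fibroblast, endothelial and proximal tubule sums. The part of these shifts in the values below was not tested. The library NC replicate 2 stood apart in base composition (Spearman's rho of -0.711 between its deviation from the mean of all libraries and the GC content of 13892 genes), so the main results are given with and without it. The other libraries had trends too, with rho of 0.153 and -0.235 in NC replicates 1 and 3 and 0.502, 0.465 and 0.302 in the PRDM16 libraries. Leaving out NC replicate 2 therefore did not remove the trend, as rho between GC content and fold change was still 0.45.

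The promoters of HELLS, CDCA7, DNMT1 and UHRF1 are shown because these 4 of the 10 hold a word of the kind bound by E2F factors, which drive genes of DNA synthesis. The word is not the same in all 4: HELLS, CDCA7 and UHRF1 hold TTTCCCGC on one strand or the other, HELLS also TTTGGCGC, and DNMT1 holds TTTCGCGC. The words searched, on both strands, were TTTCCCGC, TTTCGCGC, TTTGCCGC and TTTGGCGC, and they are in capitals in the sequences, which run from 250 bases before to 50 bases after the start that RefSeq gives (GRCh38.p14, the strand of the gene). All 10 genes had an entry. For UHRF1, TET3 and DNMT3B this start lies 6421, 2874 and 17467 bases inside the gene as the deposited tables list it, so their windows are those of an internal start.
HELLS: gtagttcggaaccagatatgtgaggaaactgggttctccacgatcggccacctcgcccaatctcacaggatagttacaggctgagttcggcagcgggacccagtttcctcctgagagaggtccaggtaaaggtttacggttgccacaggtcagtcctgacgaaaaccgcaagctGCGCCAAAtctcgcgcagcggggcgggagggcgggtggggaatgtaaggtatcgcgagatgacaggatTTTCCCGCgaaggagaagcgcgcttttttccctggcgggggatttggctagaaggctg
CDCA7: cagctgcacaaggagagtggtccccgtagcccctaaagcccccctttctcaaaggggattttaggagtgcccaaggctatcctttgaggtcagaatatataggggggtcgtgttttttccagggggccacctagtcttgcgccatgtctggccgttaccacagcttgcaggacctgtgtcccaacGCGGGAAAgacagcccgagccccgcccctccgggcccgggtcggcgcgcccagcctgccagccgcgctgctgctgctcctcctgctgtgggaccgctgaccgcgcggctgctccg
DNMT1: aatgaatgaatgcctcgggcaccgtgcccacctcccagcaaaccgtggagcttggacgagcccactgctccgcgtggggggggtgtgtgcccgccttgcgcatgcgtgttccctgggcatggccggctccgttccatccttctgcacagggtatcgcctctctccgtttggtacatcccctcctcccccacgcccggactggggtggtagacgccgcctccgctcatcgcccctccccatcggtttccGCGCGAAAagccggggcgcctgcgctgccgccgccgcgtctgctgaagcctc
UHRF1: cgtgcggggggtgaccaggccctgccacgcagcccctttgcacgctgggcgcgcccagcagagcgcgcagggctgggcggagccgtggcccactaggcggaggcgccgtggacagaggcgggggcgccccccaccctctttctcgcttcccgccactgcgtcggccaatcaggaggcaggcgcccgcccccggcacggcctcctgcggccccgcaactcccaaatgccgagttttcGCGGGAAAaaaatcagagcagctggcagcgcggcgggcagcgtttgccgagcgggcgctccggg

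These windows lie at chr10:94545538-94545837 (plus strand) for HELLS, chr2:173354622-173354921 (plus) for CDCA7, chr19:10194904-10195203 (minus) for DNMT1 and chr19:4909251-4909550 (plus) for UHRF1. HELLS held 2 words, which begin 76 and 8 bases before the start. CDCA7, DNMT1 and UHRF1 held 1 each, 65, 2 and 14 bases before it. Among all 27305 promoters of this length 3.33% held such a word, and among the 11532 of tested genes 5.12% did. A match is a stretch of letters and no evidence of binding. The box CCAAT, on either strand, was in the windows of HELLS, UHRF1, DNMT3B and TDG and in 35.7% of all promoters. The count of CG steps, the sites that these enzymes methylate, ran from 3 in the window of DNMT3B and 10 in that of TET1 to 36 in UHRF1 and 45 in TET3, beside a median of 26 over tested genes.

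The level of each gene relative to the others was read from TPM, in which counts are divided by the length listed for the gene and each library sums to 1000000. DNMT1 led with a mean of 122 TPM over the 6 libraries (97.4 to 135), above 90.4% of tested genes. UHRF1 followed with 54.1 TPM (40.03 to 59.99). CDCA7 with 31.2 (24.4 to 38.4), TDG with 25.2 (21.4 to 33.4), DNMT3B with 21.7 (19.2 to 24.1) and HELLS with 19.5 TPM (13.7 to 30.7) came next, and each of these 4 overlapped its neighbours in this order. TET3 had 7.13 TPM (5.996 to 7.978), TET2 had 3.29 (2.28 to 4.79), DNMT3A had 0.824 (0.726 to 0.939) and TET1 had 0.1002 (0.0655 to 0.185), with no overlap between neighbours from HELLS downwards. The 2 maintenance genes thus had the highest TPM, DNMT3B stood far above DNMT3A among the enzymes that place new methylation, and TET3 was the most abundant TET enzyme in TPM. The place of HELLS depended on the length used: the listed length of 13611 bases is 2.73 times that of its longest coding GENCODE transcript, and with the latter its mean was 53.3 TPM, the third in the order.

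**Figure D1:**
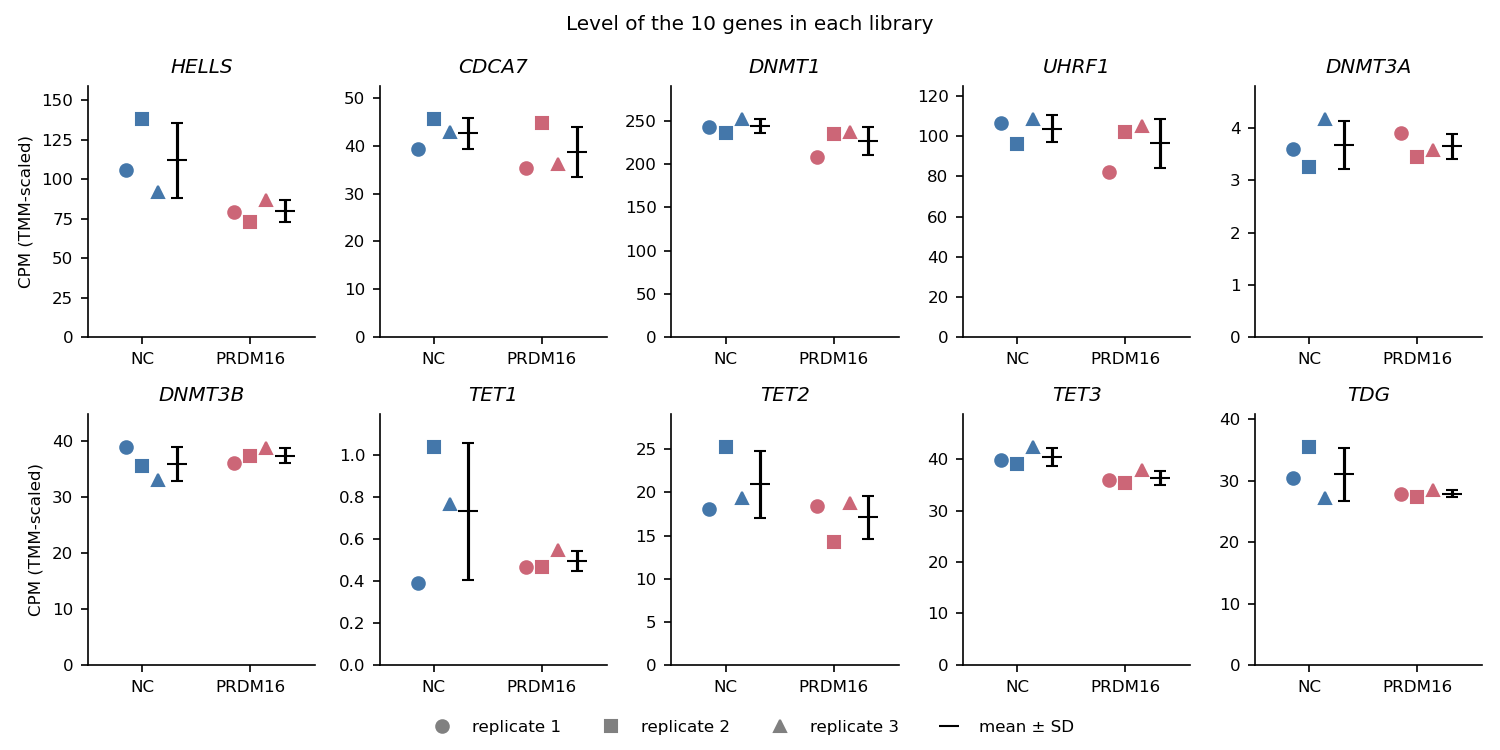
Level of each of the 10 genes in each library, in CPM scaled by TMM factors (vertical axes start at 0), with NC libraries in blue, PRDM16 libraries in red, a marker shape per replicate number and the mean with its SD in black. The groups are apart for HELLS and TET3 and overlap for the other 8 genes, and NC replicate 2 is the highest library for HELLS, CDCA7, TET1, TET2 and TDG.

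With PRDM16, 9 of the 10 genes had a log2 fold change below 0, as did 53.1% of all tested genes. The median of the 10 was -0.15 beside -0.02 over all tested genes. None of the 10 passed an adjusted p of 0.05, a threshold passed by 0.065% of all tested genes in either direction. Without NC replicate 3, and with no filter on low counts, HELLS passed, where 1.09% and 0.4% of all tested genes did. With all libraries HELLS was the only one of the 10 lower at an unadjusted p under 0.05, where 6.76% of tested genes were lower. HELLS and TET3 were lower in every PRDM16 library than in any NC library, 2 of 10, against 8.77% of tested genes. Without NC replicate 2 again none passed (0.0583% of genes did), 1 was lower at the unadjusted threshold (1.33% of genes), and 4 were lower without overlap, with DNMT1 and UHRF1 added (11.9% of genes). Since the genes were selected on this comparison, nothing is read from these counts. In bulk RNA, fewer cells of one kind and less RNA per cell cannot be told apart.

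HELLS lies on chromosome 10 (hg38, 94545778 to 94613905, plus strand). It had 106, 138 and 91.7 CPM in the NC libraries and 79.4, 73.0 and 86.7 CPM in the PRDM16 libraries, from at least 1525 counts in each. All PRDM16 libraries lay below all NC libraries, but the closest pair, NC replicate 3 and PRDM16 replicate 3, differed by little next to the spread within NC. The group means were 112 ± 23.9 and 79.7 ± 6.86 CPM (SD, n = 3), which gave a log2 difference of -0.49 ± 0.13 (SE). NC replicate 2 was the highest library, and without it the fold change was -0.30 ± 0.10. With the trend of each library on gene length and GC content removed it was -0.19 ± 0.07, and with both steps -0.19 ± 0.08. The direction stayed below 0 in all 18 alternatives, over a range of -0.61 to -0.18.

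CDCA7 (chromosome 2, 173354861 to 173368997, plus strand), the zinc finger protein that brings HELLS to chromatin, had 39.3, 45.6 and 43.0 CPM in NC and 35.4, 44.8 and 36.1 CPM in PRDM16 libraries. Its groups overlapped through PRDM16 replicate 2, which exceeded 2 of the 3 NC libraries. The log2 fold change was -0.14 ± 0.13, and -0.08 ± 0.12 without NC replicate 2. Counts of HELLS per count of CDCA7 in the same library, a ratio that does not depend on library scaling, were 2.7, 3.03 and 2.13 in NC and 2.25, 1.63 and 2.4 with PRDM16. These ranges overlapped as well, so a difference between HELLS and its partner was not separated from the spread between libraries.

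DNMT1 (chromosome 19, 10133346 to 10194953, minus strand), the maintenance methyltransferase, had 243, 236 and 252.5 CPM in NC and 208, 235 and 238 CPM in PRDM16 libraries. Its group means were 244 ± 8.11 and 227 ± 16.4 CPM (SD, n = 3), and its log2 fold change was -0.10 ± 0.11. UHRF1 (chromosome 19, 4903080 to 4962154, plus strand), which recognises half-methylated DNA and brings in DNMT1, had 107, 96.0 and 109 CPM in NC and 82.2, 102 and 105 CPM with PRDM16. Its log2 fold change was -0.11 ± 0.12, and -0.20 ± 0.09 with the length and GC trend removed. Without PRDM16 replicate 1, UHRF1 was at -0.0038 and DNMT1 at -0.04. For both genes PRDM16 replicate 1 was the lowest of the 6 libraries and the other 2 PRDM16 libraries lay close to NC. The pair kept a steady ratio, with 0.425 ± 0.017 counts of UHRF1 per count of DNMT1 in NC and 0.423 ± 0.025 with PRDM16 (SD, n = 3). HELLS per DNMT1 spread more, with 0.436, 0.585 and 0.363 in NC and 0.381, 0.310 and 0.365 with PRDM16, and these groups overlapped.

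The enzymes that place new methylation had the fold changes nearest to 0 with all libraries. DNMT3B (chromosome 20, 32762385 to 32809356, plus strand) had 39.0, 35.6 and 33.0 CPM in NC and 36.0, 37.4 and 38.8 CPM in PRDM16 libraries. It was the 1 gene of the 10 with a fold change above 0, at 0.06 ± 0.12 on the log2 scale, and it was at -0.07 with the deposited TPM, where the median of all genes was -0.13. DNMT3A (chromosome 2, 25227874 to 25342590, minus strand) had 3.60, 3.26 and 4.18 CPM in NC and 3.91, 3.45 and 3.58 CPM with PRDM16, a log2 fold change of -0.01 ± 0.19. DNMT3A was at -0.09 without NC replicate 2 and at 0.09 without NC replicate 3. For both genes the groups overlapped.

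Of the enzymes that oxidise methylcytosine, TET3 (chromosome 2, 73982036 to 74135394, plus strand) had 39.9, 39.1 and 42.4 CPM in NC and 35.9, 35.3 and 37.9 CPM in PRDM16 libraries. Its groups did not overlap and were narrow, with means of 40.5 ± 1.76 and 36.4 ± 1.32 CPM (SD, n = 3). The log2 fold change of TET3 was -0.15 ± 0.12, and -0.17 ± 0.10 without NC replicate 2, so the difference was small but did not rest on that library. TET3 shares 217 exon bases with the antisense gene LOC107985898, which had at most 6 counts in any library. The labels do not state whether counting used strand, so reads from the shared bases cannot be assigned to either gene.

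TET2 (chromosome 4, 105145875 to 105279803, plus strand) had 18.1, 25.3 and 19.4 CPM in NC and 18.4, 14.2 and 18.7 CPM with PRDM16. NC replicate 2 was the highest library and PRDM16 replicate 2 the lowest, while the other 4 lay close together. The log2 fold change was -0.29 ± 0.15 with all libraries and -0.12 ± 0.13 without NC replicate 2. TET1 (chromosome 10, 68560337 to 68700794, plus strand) had only 9, 30 and 16 counts in NC and 9, 13 and 23 counts in PRDM16 libraries. Its log2 fold change of -0.57 ± 0.36 was the largest in size of the 10 and the least precise, and it was -0.19 ± 0.42 without NC replicate 2. A difference in TET1 was not detectable at this depth.

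TDG (chromosome 12, 103965842 to 103988874, plus strand), the glycosylase that cuts out the oxidised base, had 30.4, 35.6 and 27.1 CPM in NC and 27.8, 27.4 and 28.6 CPM in PRDM16 libraries. Its groups overlapped, since NC replicate 3 lay below all PRDM16 libraries. The log2 fold change was -0.15 ± 0.13, and -0.04 ± 0.10 without NC replicate 2. RefSeq lists the pseudogenes TDGP1, TET1P1, DNMT3AP1, CDCA7P1 and CDCA7P2, so counts of their parent genes are uncertain as far as reads are shared.

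**Figure D2:**
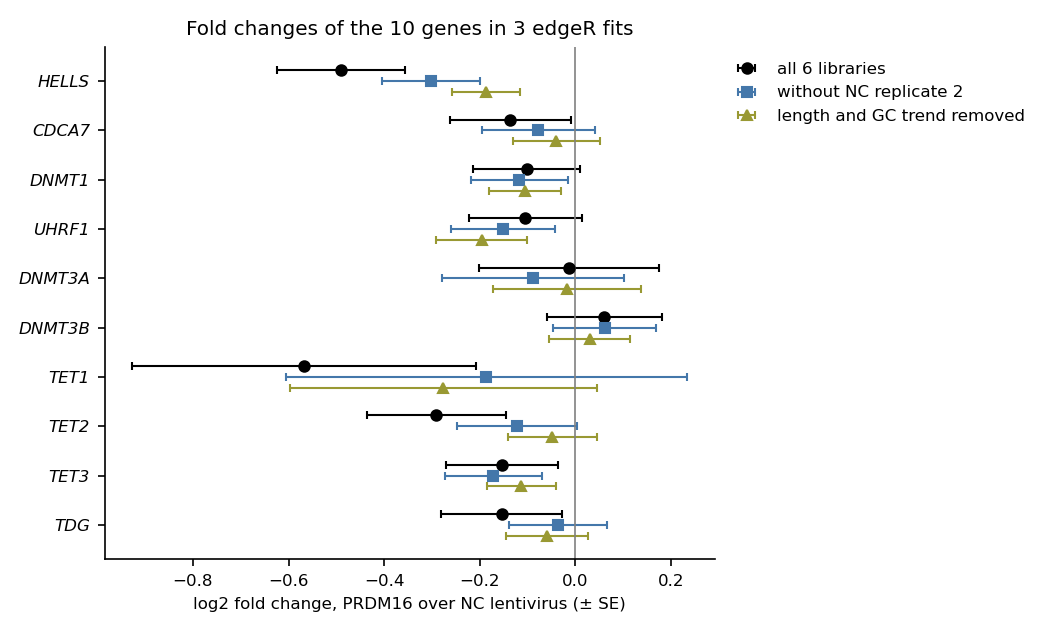
Log2 fold change of PRDM16 over NC for each of the 10 genes with its SE, from all 6 libraries (black circles), without NC replicate 2 (blue squares) and with the length and GC trend of each library removed (olive triangles). The value for HELLS moves from -0.49 to -0.30 and -0.19, TET1, TET2, TDG and CDCA7 also move towards 0, and DNMT1 and TET3 change little. UHRF1 moves away from 0, from -0.11 to -0.15 and -0.20, and DNMT3A does so without NC replicate 2, from -0.01 to -0.09.

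The fold changes of the 10 genes followed the base composition of their transcripts. GC content ran from 37.5% in HELLS, 41% in TET1, 43.0% in TET2, 44.3% in TDG and 44.8% in CDCA7 to between 53.3% and 58.1% in the other 5. The 5 genes under 45% GC were also the 5 most raised in NC replicate 2, in the same order, with log2 deviations from the mean of all libraries of 0.56, 0.49, 0.42, 0.27 and 0.17. The other 5 lay between -0.14 and 0.03 in that library. Spearman's rho between GC content and this deviation was -0.952 over the 10 genes, which all share the same libraries, and -0.711 over the 13892 genes with a GC value.

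Between GC content and the log2 fold change, rho was 0.79 over the 10 genes and 0.64 over all genes with a GC value, and the fold change itself contains NC replicate 2. Without that library the values were 0.32 and 0.45. Over all 1219 tested genes under 40% GC the median fold change was -0.24 on the log2 scale, so HELLS at -0.49 lay below the median of its range. TET2 at -0.29 and TET1 at -0.57 also lay below the -0.18 of the 40% to 45% range, whereas CDCA7 and TDG lay slightly above it. DNMT1 (-0.10) and TET3 (-0.15) lay below the 0.02 of the 50% to 55% range and DNMT3B (0.06) above it, and UHRF1 (-0.11) and DNMT3A (-0.01) below the 0.15 of the 55% to 60% range. The part of base composition in the HELLS values was not tested beyond these figures.

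**Figure D3:**
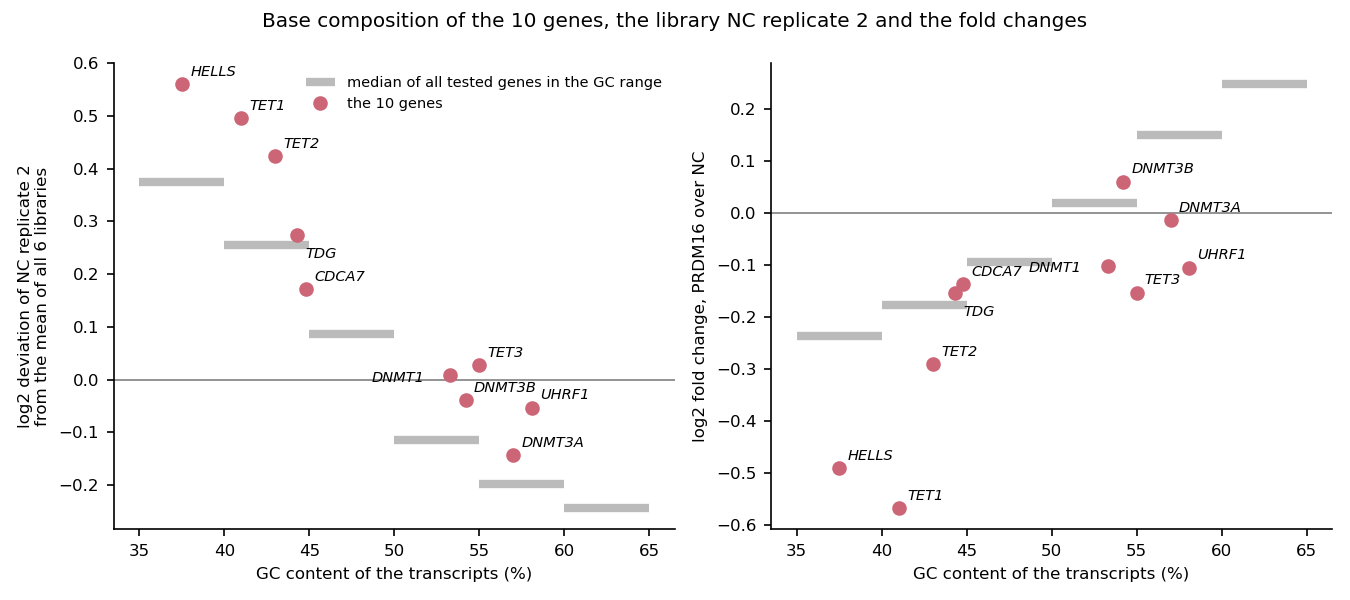
GC content of the transcripts of the 10 genes (percent) against the log2 deviation of NC replicate 2 from the mean of all libraries (left) and against the log2 fold change of PRDM16 over NC (right), with grey bars for the median of all tested genes in each GC range (the outermost bars stand for all genes under 40% and from 60%). HELLS, TET1 and TET2 are highest on the left and lowest on the right, and the grey medians fall from 0.375 to -0.243 on the left and climb from -0.236 to 0.248 on the right.

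The genes whose levels over the 6 libraries were most like those of HELLS were RC3H1, ERCC6L2, SCLT1, ZNF91 and LOC101929185. Likeness was the root mean square difference of log2(CPM + 0.5) after subtracting the mean of each gene over the 6 libraries, among 10833 genes with at least 5 CPM. RC3H1, an RNA-binding protein that marks messenger RNAs for decay, was nearest at 0.039, and LOC101929185 was the fifth at 0.055, beside a median of 0.332 over all genes compared. There were 169 genes within 0.1 of HELLS. The 4 of the 5 with a GC value had 39.4% to 41.4%, and all 5 had listed lengths of 6857 to 20759 bases, so they resemble HELLS in composition and length. Among the other 9 genes of the set TET2 was nearest to HELLS at 0.150, then TDG at 0.183, while UHRF1 and DNMT1, its partners in maintenance, were at 0.315 and 0.285, close to the median gene.

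**Figure D4:**
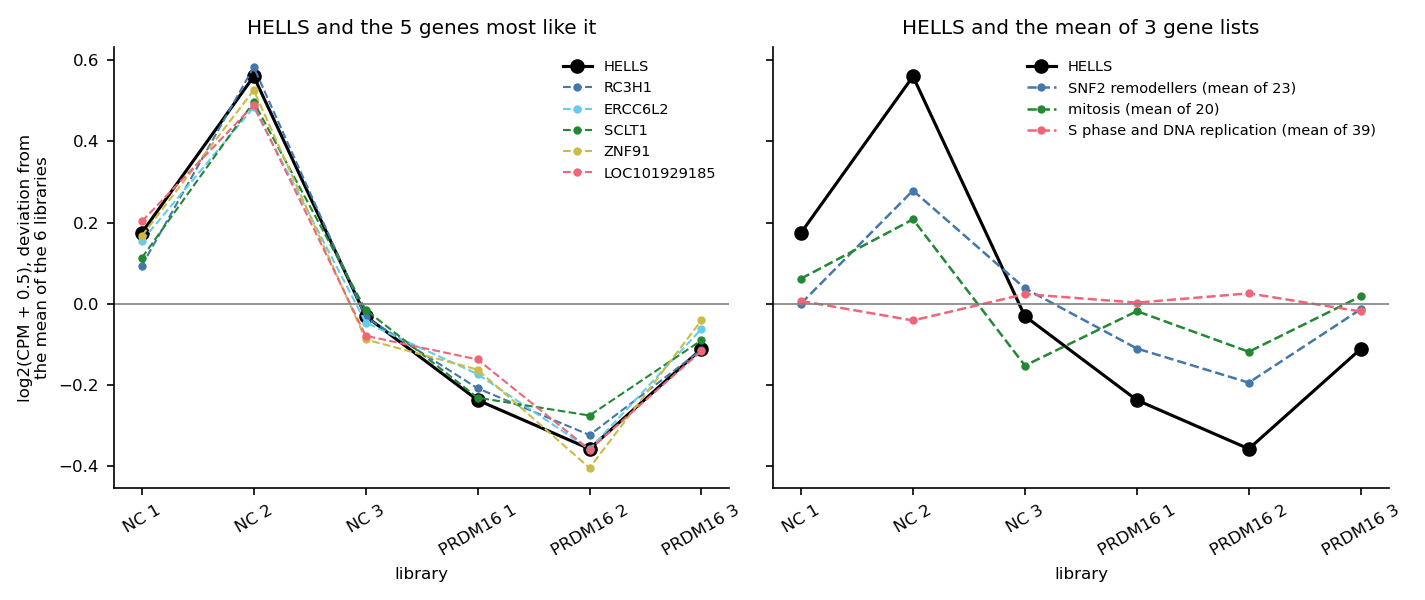
Deviation of log2(CPM + 0.5) from the mean of the 6 libraries for HELLS (black) with the 5 genes most like it (left) and with the mean over the tested genes of 3 lists (right), libraries along the horizontal axis in no order of time or dose. HELLS stands at 0.56 in NC replicate 2 and at -0.36 in PRDM16 replicate 2; the 5 genes follow it, and the mean of the 39 genes of S phase stays within 0.05 of 0.

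Other genes of the pathway were read from 6 lists with 125 genes, of which 117 were tested. None passed an adjusted p of 0.05 with all libraries. At an unadjusted p under 0.05, 15 of the 117 were lower with PRDM16, where 6.76% of all tested genes were, and 8 were higher, where 9.23% were. Without NC replicate 2 these counts were 3 (1.33% of all tested genes) and 4 (5.97%). With the deposited TPM they were 28 lower (13.2% of all tested genes) and 0 higher (2.33%), on a scale where the median of all genes was -0.13. Without NC replicate 3, 2 of the 117 passed, SMCHD1 and ATRX, both lower, where 1.09% of all tested genes passed in either direction. That fit keeps NC replicates 1 and 2 as the only NC libraries. The median log2 fold change of the 117 was -0.07, and -0.04 without NC replicate 2.

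Of 13 tested partners of DNMT1 and UHRF1, 2 were lower at the unadjusted threshold, where 6.76% of all tested genes were. CBX5, the heterochromatin protein HP1 alpha, had 199, 269.5 and 222 CPM in NC and 188, 180.5 and 189.5 CPM with PRDM16, with no overlap and a log2 fold change of -0.31 ± 0.12 (adjusted p = 0.298, edgeR). SMCHD1, which keeps the inactive X chromosome silent, had means of 198 ± 45.8 and 153 ± 24.5 CPM (SD, n = 3), and its groups overlapped. The values of USP7, which stabilises UHRF1 and DNMT1, and of TRIM28, the corepressor of KRAB zinc finger proteins, were -0.19 ± 0.12 and 0.23 ± 0.12 on the log2 scale. Without NC replicate 2 none of the 13 was past the unadjusted threshold, where 1.33% of all tested genes were lower and 5.97% higher. CBX5 was then at -0.17 and SMCHD1 at -0.17.

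Of 9 tested readers of methylated DNA, 2 were lower and 2 higher at the unadjusted threshold, where 6.76% and 9.23% of all tested genes were. MBD3, a subunit of the NuRD complex, had means of 183 ± 28.6 and 231 ± 17.1 CPM, and MBD6 had 30.2 ± 5.73 and 36.7 ± 2.30 CPM (SD, n = 3). The zinc finger readers ZBTB33 and ZBTB38 were at -0.28 ± 0.13 and -0.33 ± 0.14 on the log2 scale. Without NC replicate 2 none was lower and 1 higher at that threshold, where 1.33% and 5.97% of all tested genes were. ZBTB33, ZBTB38 and MBD6 were then at -0.12, -0.13 and 0.17. Among 20 tested TET partners and genes of base excision repair, GADD45B, a stress gene linked to demethylation, had means of 88.9 ± 9.98 and 110 ± 2.70 CPM. IDH2, which makes the cofactor that TET enzymes use, was at 0.19 ± 0.12 on the log2 scale, and OGT, a partner of TET proteins, at -0.19 ± 0.11. None of these genes passed.

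Of 14 tested genes that make and recycle the methyl donor, none passed, and their median was -0.07 on the log2 scale. MTR, methionine synthase, had means of 59.3 ± 13.6 and 48.4 ± 5.09 CPM (SD, n = 3) and a log2 fold change of -0.29 ± 0.14, and -0.08 without NC replicate 2. The values of AHCY and SHMT2, which clear S-adenosylhomocysteine and feed carbon units from serine, were 0.23 ± 0.12 and 0.24 ± 0.13.

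The SNF2 remodellers, the wider family of HELLS, had the lowest median of the 6 lists. Of 23 tested, 21 had a fold change below 0, as did 53.1% of all tested genes, and 8 were lower at the unadjusted threshold, as were 6.76% of all tested genes. The median of the list was -0.24 on the log2 scale. SMARCA5, the motor of ISWI complexes, had means of 100.4 ± 19.2 and 77.4 ± 7.18 CPM (SD, n = 3) and a log2 fold change of -0.38 ± 0.13 (adjusted p = 0.289, edgeR). CHD7, the gene of CHARGE syndrome, was at -0.43 ± 0.15, ERCC6 of transcription-coupled repair at -0.33 ± 0.15 and CHD2 at -0.31 ± 0.13. The values of SMARCA5, CHD7, ERCC6 and CHD2 were -0.20, -0.28, -0.15 and -0.17 without NC replicate 2. Without NC replicate 2 the median of the list was -0.10 with 2 genes lower at the unadjusted threshold (1.33% of all tested genes), and with the trend removed it was -0.07. These genes were long and poor in GC, with a median of 44.8% GC beside 50.2% over all tested genes and a median length of 8465 beside 4059 bases.

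HELLS, DNMT1 and UHRF1 are known as genes of S phase. Over the 39 tested genes of the list of S phase and DNA replication, the median was -0.02 on the log2 scale, with 21 below 0 (30 with the deposited TPM). Of all tested genes 53.1% were below 0 (69.3% with the deposited TPM). At the unadjusted threshold 5 were higher and 1 lower, where 9.23% and 6.76% of all tested genes were. With the length and GC trend removed 1 was higher and 0 lower, where 578 and 444 of all 15381 tested genes were. E2F1, a factor of the family whose words lie in the promoters shown above, had 191, 149 and 160 CPM in NC and 235, 189 and 203 CPM with PRDM16, which overlapped (0.33 ± 0.12, adjusted p = 0.297, edgeR). CDT1, which licenses origins, had means of 141 ± 18.6 and 176 ± 7.27 CPM, MCM5 of the replicative helicase 322 ± 25.0 and 389 ± 20.4 CPM, and CCNE1 65.7 ± 11.9 and 81.3 ± 2.93 CPM (SD, n = 3). The log2 fold changes of CDT1, MCM5 and CCNE1 were 0.32, 0.27 and 0.31. With the length and GC trend removed E2F1 was at 0.09, CDT1 at 0.04, MCM5 at 0.15 and CCNE1 at 0.27. Without NC replicate 2 these genes were at 0.26, 0.24, 0.22 and 0.18, in that order. Summed over the list, levels were 5275 to 5707 CPM in NC and 5593 to 5912 CPM in PRDM16 libraries, and those of 20 genes of mitosis were 1070 to 1389 and 1082 to 1211 CPM, with overlap in both. Of the mitosis genes TOP2A (-0.37), KIF11 (-0.33) and BUB1B (-0.28) lay below 0 on the log2 scale and UBE2C (0.31) above it, and none of the 20 passed with all libraries. The first 3 were at -0.15, -0.11 and -0.14 without NC replicate 2. Without NC replicate 3, 3 of the 20 passed, all lower, where 1.09% of all tested genes passed in either direction. They were TOP2A (-0.51), CENPE (-0.61) and CENPF (-0.61), the last 2 named after their values were seen.

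Methylation itself was not measured, and 2 lists of genes known to be kept silent or marked by it were read as RNA. Of 33 germline genes silenced by DNA methylation in body cells, 21 had 0 counts in all 6 libraries, where 3 counts would be 0.0727 to 0.149 CPM, and 5 were tested. Their summed level was 5.62 to 8.54 CPM in NC and 4.99 to 6.09 CPM in PRDM16 libraries, which overlapped, and none passed. STK31, with 11, 12 and 9 counts in NC and 2, 6 and 10 counts with PRDM16, was the 1 gene past the unadjusted threshold. It was lower, as were 6.76% of all tested genes at that threshold. TEX14, TEX15 and PIWIL2 had fold changes of -0.52 ± 0.32, -0.37 ± 0.25 and -0.49 ± 0.41 on the log2 scale. With NC replicate 2 left out TEX15 was at -0.02 and STK31 was under the filter, and the median of the list was -0.23 beside -0.49 with all libraries. Of 21 imprinted genes 13 were tested, none passed with all libraries, and the summed level was 1459 to 1593 CPM in NC and 1369 to 1496 CPM with PRDM16. KCNQ1OT1, the long RNA of the imprinted KCNQ1 locus, had 6.77, 12.1 and 7.92 CPM in NC and 5.78, 5.06 and 6.71 CPM in PRDM16 libraries, a log2 fold change of -0.61 ± 0.20 (adjusted p = 0.287, edgeR), and -0.32 without NC replicate 2. Without NC replicate 3 it was the 1 imprinted gene that passed (-0.68, adjusted p = 0.0374, edgeR), where 1.09% of all tested genes passed. PEG10, L3MBTL1 and NNAT were at -0.22 ± 0.12, -0.27 ± 0.14 and -0.45 ± 0.29.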

How the data were processed

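RNA was sequenced from 6 libraries, 3 per group, grouped by their titles. Poly(A) RNA was purified and reverse transcribed from random hexamers, per the labels' protocols. Coordinates are in hg38, the build named in the submitters' processing notes. The tool used to align or count was not given in the sources used here. Per the file headers, the authors deposited raw counts, TPM and FPKM for each gene. The deposited FPKM values were used only to check totals after 7 genes broken over lines were rejoined.

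Counts were tested with edgeR 4.0.16 (R 4.3.3, limma 3.58.1): quasi-likelihood with robust estimation, TMM factors, a minimum count of 10 and total of 15, Benjamini-Hochberg over 15381 genes. CPM values carry the TMM factors, those of marker lists included, except the CPM given for 3 counts. The fold of PRDM16 is a bound over the floor of 3 counts. GC content came from GENCODE transcripts and was found for 90.3% of tested genes. The trend on length and GC was removed with splines of 5 degrees of freedom per library, entered as offsets. Libraries of a group differed beyond sampling noise and each counted once.

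The 10 genes and the lists were chosen with earlier results of these data known. Each list names genes that passed or, with none, up to 4 with the smallest p. Some genes of these lists are not reported here. DESeq2 1.42.0, limma-voom, other scalings and filters, left-out libraries, a replicate block and deposited TPM were alternatives. The fit was tested on simulated data with less spread between libraries than here and no trend on length or GC. That simulation therefore does not show how the fit behaves under such a trend.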

Additional observations from a re-analysis of the deposited data

How the results depend on the processing

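No gene of the 10 passed with all libraries, and the count was 1 (HELLS, log2 fold change -0.48) with no filter on low counts, where 107 of 26721 genes passed. Leaving out each library in turn gave 0 to 1 of the 10 (HELLS without NC replicate 3, -0.61, where 173 of 15931 genes passed against 10 of 15381 with all libraries) and 0 to 2 of the pathway genes (SMCHD1 and ATRX without NC replicate 3). HELLS was picked for its small p on these libraries, so these calls support nothing. With DESeq2 and limma-voom 0 of the 10 passed. The log2 fold change of HELLS was below 0 in all 18 alternatives. In 15 it moved by less than the SD between replicates of a group in log2(CPM + 0.5). It moved by more in the fits with the length and GC trend removed. There it was at -0.19 with all libraries, -0.18 with a replicate block and -0.19 without NC replicate 2. MTR turned to 0.017 without NC replicate 2 and with the length and GC trend removed. DNMT3A was below 0 in 16 of 18 alternatives and DNMT3B in 1 of 18. Deposited TPM moved the median of all genes to -0.13 and that of the 10 genes to -0.26.

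Same-numbered libraries did not deviate together (correlations of 0.094, -0.104 and -0.131, beside -0.092 to 0.204 for libraries of unlike number). Deviations from a mean of only 3 libraries sum to 0 within a group, so these values cannot exclude a pairing by number. With a replicate block 0 of the 10 and 0 pathway genes passed, and HELLS was at -0.47. TET1 gave no value under the stricter filter, and its 9 to 30 counts limit its precision.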
